A study of Rattus norvegicus with 36 samples.

Results

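The 9 enzymes that carry squalene synthesis and the conversion of squalene to cholesterol (Fdft1, Sqle, Lss, Cyp51, Msmo1, Nsdhl, Hsd17b7, Sc5d and Dhcr7) were followed in rat liver. Their values were found by annotation, as probe sets that name exactly 1 gene, that gene being one of the 9. This gave 16 of the 31042 probe sets tested and 9 of the 14217 genes that they cover. Sc5d has 3 such probe sets, Fdft1, Lss, Cyp51, Nsdhl and Hsd17b7 have 2 each, and Sqle, Msmo1 and Dhcr7 have 1 each. A gene is represented below by its probe set with the highest mean over all arrays.

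The livers came from 36 male Sprague Dawley rats (supplied as Harlan Sprague Dawley), 7 weeks old at the start and fed the NTP-2000 diet. TBBPA.DBPE, the bis(dibromopropyl) ether of the brominated flame retardant tetrabromobisphenol A, was given by gavage in corn oil daily for 5 days. A corn oil vehicle group and dose groups of 0.1 mg/kg, then 0.94 mg/kg, 9.4 mg/kg and 94.3 mg/kg, up to 943 mg/kg, held 6 animals each, and RNA of the left lobe was taken 1 day after the last dose. Each animal had 1 array, which gave log2 expression values, so that replicates are separate animals. All 6 groups received corn oil by gavage, and RNA with an integrity number under the study's minimum was not used, per the labels' protocols.

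Cholesterol is made from acetyl-CoA by way of mevalonate and farnesyl diphosphate. Squalene synthase (Fdft1) joins farnesyl units to squalene, the first intermediate committed to sterols, and the enzymes after it close the rings, remove methyl groups and shift or reduce double bonds. Hepatocytes are a main site of this synthesis, and in mammals the genes are known targets of SREBP-2, a membrane-bound transcription factor released when cell sterols are low. SREBPs bind sterol regulatory elements and work there with NF-Y and Sp1, which bind CCAAT and GC boxes.

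The arrays resembled each other closely. Array medians ran from 4.59 to 4.66 (log2), and arrays correlated with one another at 0.989 to 0.997. Markers of hepatocytes (Alb, Apoa1, Ttr and others) had vehicle means of 8.75 to 14.40, as the label liver implies. In whole tissue, fewer cells of a type and less RNA per cell cannot be told apart. In each of the 5 comparisons of a dose with vehicle, 0 of the 31042 probe sets passed an adjusted p of 0.05 (0% called, limma with Benjamini-Hochberg adjustment), so 0 of the 9 enzymes did.

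What the data show for the 9 enzymes is a difference in means at the 2 highest doses that did not pass this test, and a correlation between the enzymes over animals of the same group, which passed a permutation test of its own. At 94.3 mg/kg all 9 means were above vehicle, by 0.07 (Sc5d) to 0.68 (Sqle) on the log2 scale, and at 943 mg/kg all 9 were above it, by 0.12 to 0.46. Among all genes, 52.5% had a higher mean than vehicle at 94.3 mg/kg and 50.8% at 943 mg/kg. Within a group, a rat high in one of the enzymes tended to be high in the others, with a median pairwise correlation of 0.83 over 36 animals.

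The start of each gene was read from RefSeq promoters (build GRCr8, 250 bases before to 50 after the start). The table held 7 of the 9 genes, and Fdft1 and Sqle were not among them. The sequences below run 5′ to 3′ along the gene's strand, and the capitals mark an NF-Y box (CCAAT, or ATTGG for the other strand). Nsdhl at chrX:155817110-155817409 (plus strand), with 5 boxes, Msmo1 at chr16:29746863-29747162 (plus strand), with 3, and Hsd17b7 at chr13:84722705-84723004 (minus strand), with 3, hold the most. Cyp51 at chr4:30991443-30991742 (plus strand) holds 0 and is printed for contrast.
Nsdhl: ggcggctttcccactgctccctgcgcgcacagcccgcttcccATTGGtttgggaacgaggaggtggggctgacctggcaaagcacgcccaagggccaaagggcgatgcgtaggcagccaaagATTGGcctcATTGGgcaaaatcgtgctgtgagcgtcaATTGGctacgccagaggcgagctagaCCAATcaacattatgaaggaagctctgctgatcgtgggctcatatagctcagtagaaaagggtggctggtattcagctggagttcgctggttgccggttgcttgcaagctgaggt
Msmo1: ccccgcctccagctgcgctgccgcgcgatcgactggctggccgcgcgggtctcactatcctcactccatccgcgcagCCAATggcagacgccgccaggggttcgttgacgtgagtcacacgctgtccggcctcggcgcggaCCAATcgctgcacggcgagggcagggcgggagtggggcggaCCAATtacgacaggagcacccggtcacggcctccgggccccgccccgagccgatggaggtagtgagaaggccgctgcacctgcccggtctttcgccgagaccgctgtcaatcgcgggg
Hsd17b7: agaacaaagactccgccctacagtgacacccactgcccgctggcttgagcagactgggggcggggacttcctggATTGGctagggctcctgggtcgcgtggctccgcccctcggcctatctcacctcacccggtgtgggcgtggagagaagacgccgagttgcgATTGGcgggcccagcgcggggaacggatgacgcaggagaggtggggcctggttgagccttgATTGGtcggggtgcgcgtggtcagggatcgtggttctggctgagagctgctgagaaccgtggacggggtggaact
Cyp51: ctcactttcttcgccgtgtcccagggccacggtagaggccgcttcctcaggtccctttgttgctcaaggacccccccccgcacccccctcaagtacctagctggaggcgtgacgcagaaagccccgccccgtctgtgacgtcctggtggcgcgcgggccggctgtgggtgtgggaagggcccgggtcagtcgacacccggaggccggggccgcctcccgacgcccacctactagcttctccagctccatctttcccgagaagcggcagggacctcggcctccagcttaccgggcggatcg

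The NF-Y box (CCAAT, both strands) was found in 5 of the 7 promoters, with 13 matches in all, against 37.5% of the 33469 RefSeq promoters of the same length. At least 2 matches occur in 11.2% of all promoters, and Nsdhl, Msmo1 and Hsd17b7 are among them. Lss and Sc5d had 1 match each, and Cyp51 and Dhcr7 had 0. In Hsd17b7 the matches began at bases -176, -86 and -25, and in Msmo1 at -173, -109 and -68, counted from the base before the start as -1. The GC box (GGGCGG, both strands) was in 6 of 7, all but Nsdhl, against 33.1% of all promoters. The sterol regulatory element searched (TCACNCCAC, both strands, N any base) was in 0 of 7, against 1.12% of all promoters. No match of one motif overlapped a match of another. These matches describe the letters of the window only. Between animals of the same group, Cyp51 (0 NF-Y boxes) had the highest median correlation with the other 8 enzymes, 0.892. Nsdhl (5 boxes) had the lowest, 0.657. A link between the boxes and the correlation was not tested.

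The entry to the pathway is squalene synthase and squalene epoxidase. Fdft1 had 9.70, 10.14 and 10.49 (lowest, median and highest of 6 animals, log2 scale) at 94.3 mg/kg and 9.79, 10.07 and 10.51 at 943 mg/kg, against 9.64, 9.84 and 10.20 in vehicle. The ranges overlapped, with 2 animals at 94.3 mg/kg and 1 at 943 mg/kg above every vehicle animal. The mean difference was 0.25 ± 0.13 (SE, log2) at 94.3 mg/kg and 0.22 at 943 mg/kg (limma adjusted p = 0.731 and 0.868). The other Fdft1 probe set gave 0.31 and 0.26, with 3 animals at 94.3 mg/kg and 2 at 943 mg/kg above every vehicle animal.

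Sqle, which makes squalene epoxide and is a rate-limiting step after HMG-CoA reductase, had 8.24, 9.27 and 9.92 at 94.3 mg/kg and 7.90, 9.01 and 9.72 at 943 mg/kg, against 8.06, 8.49 and 8.76 in vehicle. At 94.3 mg/kg 5 of 6 animals were above every vehicle animal, and at 943 mg/kg 4 of 6 were, while 1 animal at 943 mg/kg was below every vehicle animal. The difference was 0.68 ± 0.24 (SE; 95% interval 0.19 to 1.16) at 94.3 mg/kg, with an unadjusted p of 0.0079 and an adjusted p of 0.55 (limma). At 943 mg/kg it was 0.46, with an interval of -0.03 to 0.95 (limma adjusted p = 0.868). At the lower doses the median was 8.86 at 0.1 mg/kg, 8.36 at 0.94 mg/kg and 8.65 at 9.4 mg/kg. The doses did not follow a steady order: 4 of 6 animals at 0.1 mg/kg were above every vehicle animal, whereas the animal with the lowest value of all 36 (7.54) had received 0.94 mg/kg.

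Ring closure and demethylation follow. Lss, lanosterol synthase, folds squalene epoxide into lanosterol. Its values were 8.44, 9.27 and 9.98 at 94.3 mg/kg and 8.54, 9.16 and 9.72 at 943 mg/kg, against 8.45, 8.86 and 9.04 in vehicle, with 4 of 6 animals above the vehicle range at either dose. The difference was 0.45 ± 0.19 at 94.3 mg/kg and 0.37 ± 0.19 at 943 mg/kg (SE; limma adjusted p = 0.643 and 0.868), and its other probe set gave 0.33 and 0.27. On that probe set 3 of 6 animals were above the vehicle range at 94.3 mg/kg and 2 of 6 at 943 mg/kg.

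Cyp51 (lanosterol demethylase) had 11.37, 11.79 and 12.25 at 94.3 mg/kg and 11.36, 11.85 and 12.25 at 943 mg/kg, against 11.40, 11.61 and 11.83 in vehicle. At both doses 3 animals were above the vehicle range and 1 was below it. The difference was 0.18 ± 0.14 at 94.3 mg/kg and 0.20 at 943 mg/kg (SE; limma adjusted p = 0.858 and 0.875). Its other probe set gave 0.24 and 0.28, with 4 animals above the vehicle range at either dose. On that probe set 0 animals were below the range at 94.3 mg/kg and 1 at 943 mg/kg.

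Msmo1, sterol methyl oxidase, had 11.07, 11.71 and 12.32 at 94.3 mg/kg and 10.79, 11.63 and 12.20 at 943 mg/kg, against 10.91, 11.14 and 11.46 in vehicle. At 94.3 mg/kg 4 of 6 animals were above the vehicle range, and at 943 mg/kg 5 of 6 were, with 1 below it. The difference was 0.52 ± 0.19 (SE, 95% interval 0.12 to 0.91) at 94.3 mg/kg and 0.44 (0.05 to 0.84) at 943 mg/kg, and the limma adjusted p was 0.576 and 0.865. At 0.1 mg/kg, 4 of 6 animals were also above the vehicle range (difference 0.32).

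Nsdhl and Hsd17b7 finish demethylation, as a sterol dehydrogenase and a sterol ketoreductase. Nsdhl had 10.54, 11.06 and 11.17 at 94.3 mg/kg and 10.85, 10.96 and 11.13 at 943 mg/kg, against 10.65, 10.86 and 10.99 in vehicle. The difference was 0.15 ± 0.09 and 0.12 ± 0.09 (SE; limma adjusted p = 0.804 and 0.891). Of the 6 animals at 94.3 mg/kg, 5 were above the vehicle range and 1 was below it, while at 943 mg/kg 1 of 6 was above it. Among those 5, replicate 6 (10.9853) was all but level with the highest vehicle animal (10.9852). The other Nsdhl probe set gave 0.17 and 0.15. On it 5 of 6 animals were above the vehicle range and 1 below it at 94.3 mg/kg, and 3 of 6 were above it at 943 mg/kg.

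Hsd17b7 had 7.89, 8.68 and 9.37 at 94.3 mg/kg and 7.96, 8.62 and 9.29 at 943 mg/kg, against 7.87, 8.25 and 8.57 in vehicle, with 4 of 6 animals above the vehicle range at either dose. The difference was 0.44 ± 0.21 and 0.41 ± 0.21 (SE; limma adjusted p = 0.689 and 0.868). Its other probe set gave 0.45 and 0.44, with 2 of 6 animals above the vehicle range at 94.3 mg/kg and 1 of 6 at 943 mg/kg.

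In the last steps Sc5d adds a double bond and Dhcr7 reduces one. Sc5d, sterol C5 desaturase, had 10.32, 10.55 and 10.83 at 94.3 mg/kg and 10.28, 10.63 and 11.04 at 943 mg/kg, against 10.38, 10.50 and 10.72 in vehicle. The difference was 0.07 ± 0.10 and 0.12 ± 0.10 (SE; limma adjusted p = 0.937 and 0.901), and the groups overlapped. Above the vehicle range were 2 of 6 animals at 94.3 mg/kg and 1 of 6 at 943 mg/kg, with 1 below it at either dose. Its other probe sets gave 0.10 and 0.01 at 94.3 mg/kg, and 0.08 and 0.09 at 943 mg/kg. On the first of these, 4 of 6 animals were above the vehicle range at 94.3 mg/kg and 3 of 6 at 943 mg/kg, with 1 below it at either dose. On the second, 0 of 6 and 2 of 6 were above it, with 1 and 2 below it.

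Dhcr7, which reduces 7-dehydrocholesterol to cholesterol, had 9.49, 10.003 and 10.30 at 94.3 mg/kg and 9.54, 9.94 and 10.61 at 943 mg/kg, against 9.16, 9.86 and 10.35 in vehicle. None of the animals at 94.3 mg/kg was above the vehicle range, while 2 of 6 at 943 mg/kg were. The vehicle animals themselves spread by 0.38 (SD), and the difference was 0.13 ± 0.18 and 0.18 ± 0.18 (SE; limma adjusted p = 0.932 and 0.912).

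**Figure D1:**
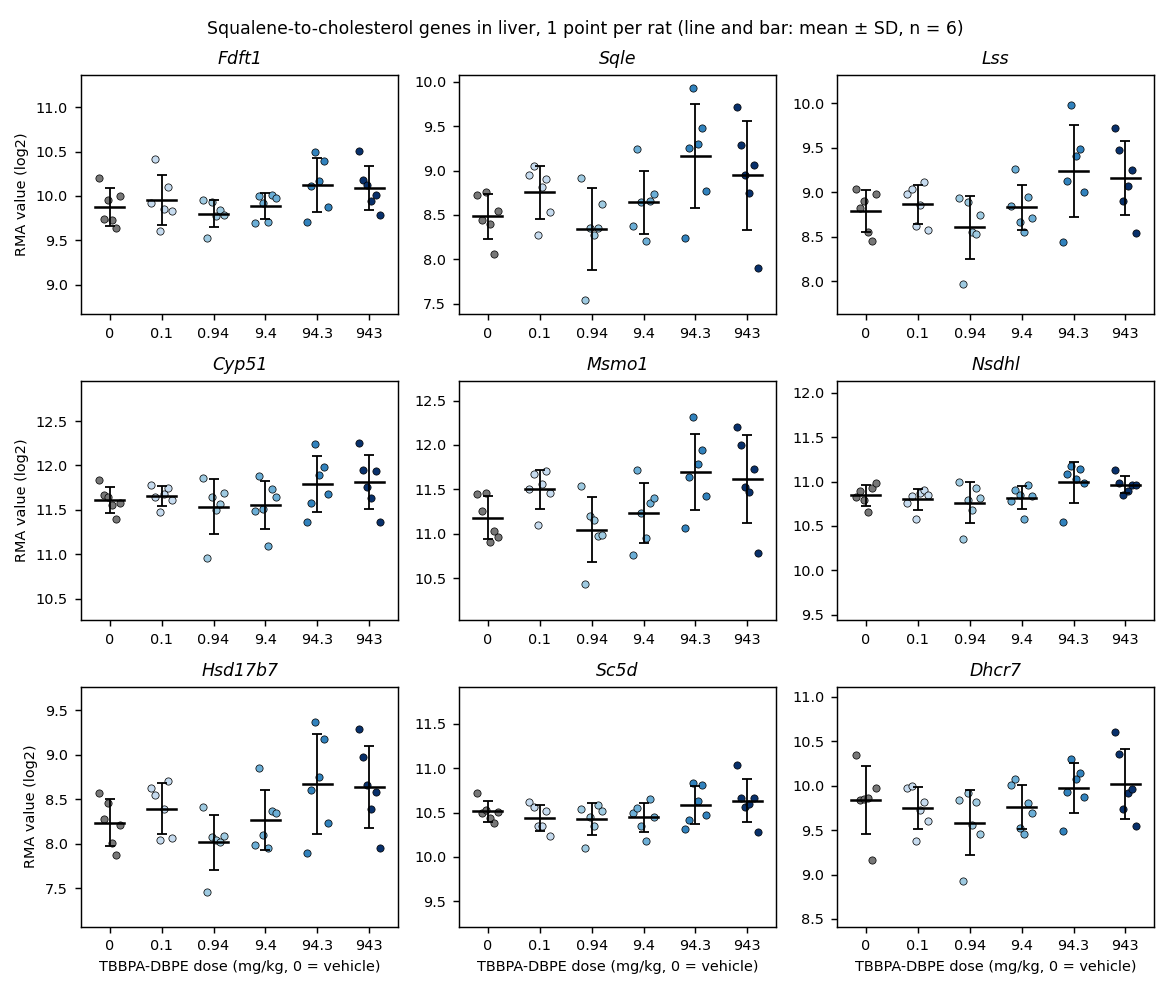
Log2 expression value of each of the 9 enzymes in every animal, by dose group from vehicle to 943 mg/kg, with a point per animal and lines for the group mean ± SD (n = 6). At 94.3 and 943 mg/kg the means lie above vehicle, while the animals of every dose group overlap the vehicle animals.

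**Figure D2:**
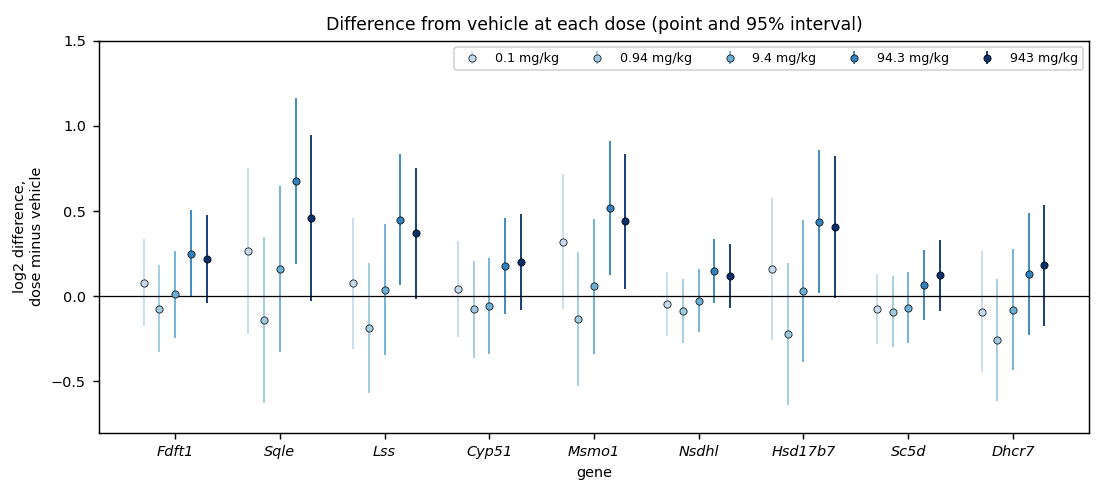
Log2 difference of dose minus vehicle for each enzyme and each of the 5 doses, with 95% intervals of the limma fit. Above 0 are 6 of 9 enzymes at 0.1 mg/kg (Msmo1 0.32, Sqle 0.27), 0 of 9 at 0.94 mg/kg, 5 of 9 at 9.4 mg/kg (Sqle 0.16) and all 9 at 94.3 and 943 mg/kg, and 0 pass the adjusted test.

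Over the 5 doses the median difference of the 9 enzymes was 0.08 at 0.1 mg/kg, -0.13 at 0.94 mg/kg, 0.01 at 9.4 mg/kg, 0.25 at 94.3 mg/kg and 0.22 at 943 mg/kg, where the median of all genes lay between 0.001 and 0.005. Above vehicle were 6 of 9 means at 0.1 mg/kg, beside 50.6% of all genes, 0 of 9 at 0.94 mg/kg, beside 51.4%, and 5 of 9 at 9.4 mg/kg, beside 51.2%. Below an unadjusted p of 0.05 and higher were 4 of 9 at 94.3 mg/kg (Sqle, Msmo1, Lss and Hsd17b7), beside 4.04% of all genes, and 1 of 9 (Msmo1) at 943 mg/kg, beside 3.21%. At 0.1, 0.94 and 9.4 mg/kg this count was 0 of 9, beside 3.02%, 2.26% and 2.53%. The slope over dose rank was above 0 for 9 of 9, beside 52.2% of all genes. Of the 9 slopes 6 were above 0 at an unadjusted p under 0.05, beside 2.80% of all genes, and the smallest adjusted p was 0.825 (limma). The moderated F test over the doses gave 4 of 9, beside 5.58%, with a smallest adjusted p of 0.886. The 9 enzymes vary together, as described next, so these counts are not 9 separate observations.

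In units of the residual SD between animals of a group, the median difference of the 9 enzymes was 1.09 at 94.3 mg/kg and 0.946 at 943 mg/kg. The 4 enzymes with the largest differences at 94.3 mg/kg were also the 4 that varied most between animals of a group. The residual SD was 0.448 for Sqle, 0.384 for Hsd17b7, 0.362 for Msmo1 and 0.351 for Lss, each above at least 97.2% of all genes, and 0.164 for Nsdhl, above 69.2% of them. From its lowest to its highest animal, Sqle spanned 2.39 on the log2 scale, a 5.23-fold range.

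After the mean of each group was removed, the 9 enzymes varied together between animals. Of the 36 pairs, all 36 had a positive Pearson r, from 0.589 (Nsdhl with Dhcr7) to 0.955 (Sqle with Hsd17b7), with Spearman's rho from 0.495 to 0.931. All 36 passed a two-sided permutation of animals within groups (100000 resamples), the largest Benjamini-Hochberg adjusted p being 0.00065 for r and 0.00424 for rho, and 28 had the smallest p that these resamples can give, 1e-05. Without the 2 animals farthest from the median of the first gene, r lay between 0.422 and 0.944. The points share arrays that were normalized together, and the share of other gene pairs that pass the same test was not computed. As background, the median r of each other gene with the 9 enzymes had 1st and 99th percentiles of -0.421 and 0.423. The first component of the 9 held 83.7% of their variance between animals.

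**Figure D3:**
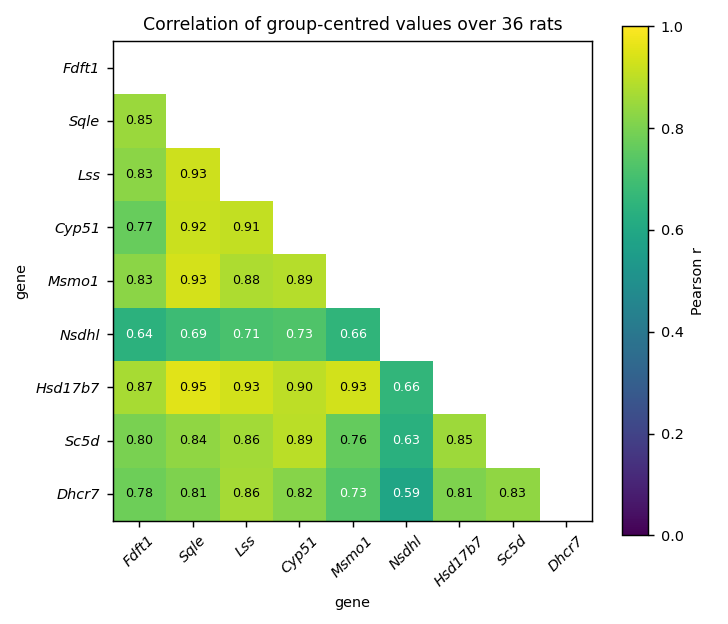
Pearson correlation of each pair of the 9 enzymes over 36 animals after removal of group means, as a coloured square with its value. The lowest value is 0.589 for Nsdhl with Dhcr7 and the highest 0.955 for Sqle with Hsd17b7.

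The enzymes did not follow the common pattern to the same degree. The mean of the other 8 shared 92.0% of the variance of Sqle and 92.0% of that of Hsd17b7, with slopes of 1.66 and 1.38, so Sqle moved by more than the mean of the others. It shared 50.04% of the variance of Nsdhl, with a slope of 0.388. Dhcr7 shared 71.3% and Sc5d 77.9%. The probe sets of 1 gene followed each other with r of 0.879 to 0.946 for Fdft1, Lss, Cyp51, Nsdhl and Hsd17b7, and with r of 0.603 and 0.759 for Sc5d.

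The median correlation was above 0 inside every group. The median r of the 36 pairs was 0.815 in vehicle, 0.797 at 0.1 mg/kg, 0.910 at 0.94 mg/kg, 0.771 at 9.4 mg/kg, 0.952 at 94.3 mg/kg and 0.925 at 943 mg/kg, with 6 animals each. In vehicle 30 of 36 pairs were positive, with a lowest r of -0.225, and in each dose group 36 of 36 were. The median within-group SD of the 9 enzymes was 0.313 at 94.3 mg/kg and 0.395 at 943 mg/kg, against 0.238 in vehicle. The difference of these SDs and correlations between groups was not tested.

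Single animals stood high or low across the enzymes. Of the 36 rats, 10 had all 9 enzymes above their own group mean and 6 had all 9 below it. At 94.3 mg/kg replicate 3 was the highest animal of its group for 9 of 9 enzymes and replicate 1 the lowest for 9 of 9, with Sqle 0.76 above and 0.92 below the group mean. At 943 mg/kg replicate 1 was highest for 9 of 9 and replicate 6 lowest for 8 of 9, with Sqle 0.77 above and 1.05 below. At 0.94 mg/kg replicate 2 was lowest for 9 of 9 and had the lowest value of all 36 animals for each of the 9 enzymes.

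**Figure D4:**
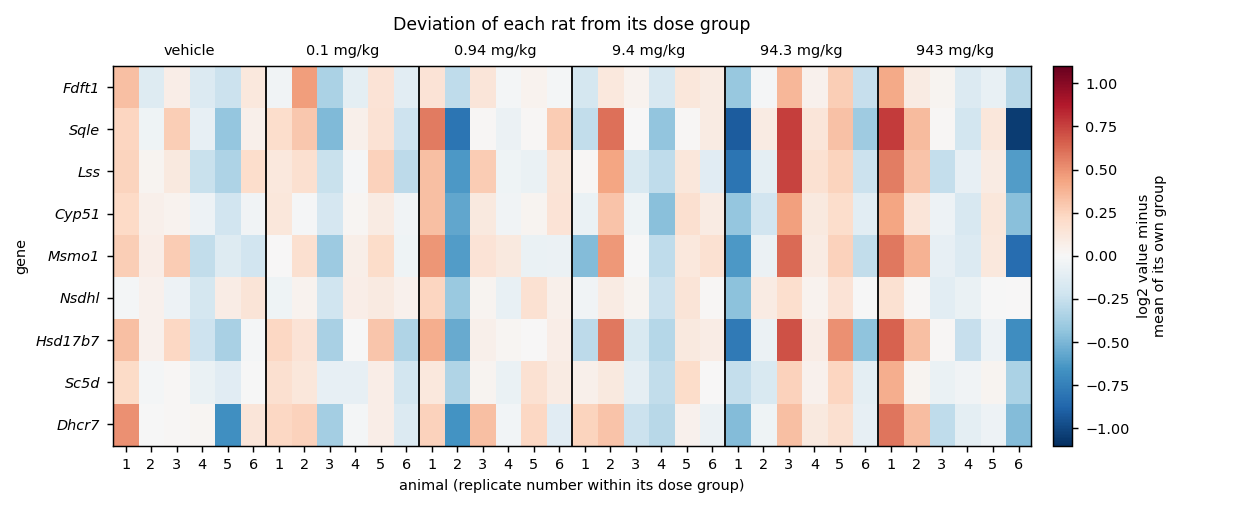
Deviation of each of the 9 enzymes from the mean of its own dose group in each of the 36 animals, on the log2 scale. In 16 animals all 9 enzymes deviate in 1 direction, among them replicates 1 and 3 at 94.3 mg/kg.

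The arrays' own quality measures were set beside this pattern. The difference between 3′ and 5′ probe sets of beta-actin, a sign of RNA quality, ranged from 0.993 to 1.51 on the log2 scale and was highest in replicate 2 at 0.94 mg/kg. Its median r with the 9 enzymes was -0.316 over 36 animals and -0.107 without that animal. For the same difference of GAPDH the median r was -0.101, and 0.0305 without that animal. The array median had a median r of -0.306 with the enzymes, and -0.294 without that animal. The correlation of an array with the others had -0.162, and -0.283 without it. The part of these 4 measures in the results was not tested. Without the 4 animals whose median deviation was largest (replicate 2 at 0.94 mg/kg, replicate 1 at 94.3 mg/kg, and replicates 1 and 6 at 943 mg/kg), a choice made after seeing the data, the median r of the 36 pairs was 0.715.

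Genes were then ranked by their median r with the 9 enzymes over the 36 animals, as a description with no test. The other 14208 genes had a median of -0.0073, with 1st and 99th percentiles of -0.421 and 0.423, and 13 genes exceeded 0.7. The 10 highest were Idi1 (0.898), Mvd (0.883), Acss2 (0.866), Acat2 (0.859), Elovl6 (0.821), Ebp (0.8005), Pmvk (0.795), Fdps (0.781), Mvk (0.764) and Aacs (0.747). Idi1, Mvd, Pmvk, Fdps and Mvk belong to the mevalonate arm, Acat2 makes its first acetoacetyl-CoA, and Ebp is a sterol isomerase between Hsd17b7 and Sc5d. Elovl6 elongates fatty acids, while Acss2 and Aacs activate acetate and acetoacetate. The 5 lowest were Kif18a, Syncrip-ps2, C13h1orf74, Glo1 and Arhgap11a, from -0.637 to -0.585.

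Further lists drawn from the known pathway, and chosen with earlier results of these data known, place the 9 enzymes among their neighbours. In the mevalonate arm 7 of 9 genes were measured, and their median r was 0.795, with 6 of 7 over 0.6 and Ggps1, which makes the geranylgeranyl donor outside the sterol route, at 0.108. At 94.3 mg/kg 6 of 7 were above vehicle with a median of 0.34, and at 943 mg/kg 7 of 7 with a median of 0.35, and 0 passed the adjusted test in either direction. At each of these doses 3 of 7 had an unadjusted p under 0.05 in either direction (limma). Beside these counts, 4.04% of all genes at 94.3 mg/kg and 3.21% at 943 mg/kg were higher at that threshold. These shares count 1 direction only, and the share in either direction was not computed. Of the other late enzymes, Ebp and Tm7sf2 (0.678) had the higher values and Lbr the lowest (0.182). Their median difference from vehicle was 0.0112 at 94.3 mg/kg (3 of 3 above vehicle) and 0.12 at 943 mg/kg (2 of 3), and 0 of 3 passed in either direction. Ebp, close to the 9 enzymes between animals, differed from vehicle by 0.04 at 94.3 mg/kg and Tm7sf2 by 0.0112. The other 2 genes of the mevalonate list and 1 of the late list were not analysed here.

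The regulators were less alike. Srebf2, which encodes SREBP-2, had a median r of 0.585, Scap, its escort, 0.465, Insig1, a retention protein and target, 0.389, and Srebf1 0.045, while Insig2 was at -0.334. Of 9 measured regulator and uptake genes, 5 were above vehicle at 94.3 mg/kg (median 0.03) and 4 at 943 mg/kg (median -0.04), and 0 passed in either direction. Sterol export and bile acid genes gave a median r of 0.226, with the sterol exporters Abcg8 at 0.502 and Abcg5 at 0.486 and Cyp7a1, which starts the classical route to bile acids, at 0.040. In fatty acid synthesis the median was 0.290 over 12 genes, with Elovl6 at 0.821 and Fasn at 0.719 but Scd at -0.162. Above vehicle at 94.3 mg/kg were 10 of 12 with a median of 0.28, beside 0.25 for the 9 enzymes and 0.34 for the mevalonate arm. Of the 12, 4 had an unadjusted p under 0.05 in either direction (limma), beside 4.04% of all genes that were higher at that threshold. The share of all genes in either direction, the like measure, was not computed. At 943 mg/kg 10 of 12 were above vehicle with a median of 0.11, and 0 passed the adjusted test in either direction at these doses (limma).

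Electron donors of the sterol enzymes had a median r of 0.262 over 4 genes, with Por, the cytochrome P450 reductase that serves Cyp51 and Sqle, at 0.504. Isoprenoid branch genes, which draw farnesyl diphosphate away from sterols, had a median of -0.0011 over 5.

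Clock genes, whose levels vary with the hour, had a median r of -0.063 over 13 genes, from -0.405 (Cry2) to 0.191. Fasting genes had a median of 0.038, from -0.354 (Ppargc1a) to 0.084. At 94.3 mg/kg, where all 9 enzymes had a higher mean, 0 of 7 fasting genes were above vehicle (median -0.27), beside 52.5% of all genes. Of these 7, 2 had an unadjusted p under 0.05 (limma), and the share of all genes lower at that threshold was not computed. At 943 mg/kg 3 of 7 were above vehicle (median -0.0066). None of the 7 passed the adjusted test (limma), and their part in the enzymes' values was not tested. Of 13 clock genes 4 were above vehicle at 94.3 mg/kg (median -0.05) and 4 at 943 mg/kg (median -0.07), and 0 passed. Every single marker of the 9 cell type lists (hepatocytes, Kupffer cells, endothelium, stellate cells, cholangiocytes, lymphocytes, neutrophils, erythroid cells and pancreatic acini) lay between -0.268 and 0.205.

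**Figure D5:**
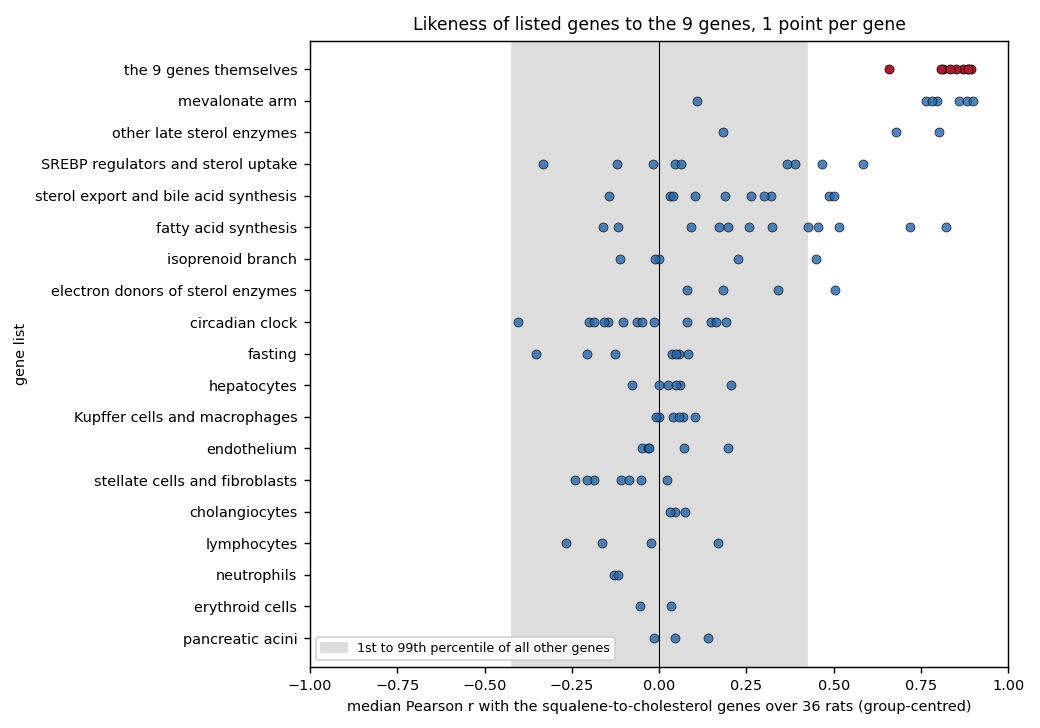
Median Pearson r with the 9 enzymes over 36 animals for each measured gene of each list, 1 point per gene, with the 1st to 99th percentile of all other genes shaded. The mevalonate arm (median 0.795) and other late sterol enzymes (0.678) lie highest, and the cell type markers lie between -0.268 and 0.205.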

How the data were processed

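Liver RNA of 36 rats, 6 per group, was hybridised to 1 array each. The authors deposited log2 expression values per probe set, which the submitters' processing notes credit to RMA and affy, without a version. RMA sets all arrays to 1 distribution, which would remove a change common to most genes. No filter on signal was set, 57 array controls were dropped, and 31042 probe sets entered limma 3.58.1 in R 4.3.3 (group means, moderated test, Benjamini-Hochberg over all probe sets, threshold 0.05). The authors' R/maanova test, per the labels' design text, was not rerun. Probe sets were named from the platform annotation, of which 20826 name 1 gene, 436 several and 9780 none here. All 16 of the enzymes' probe sets matched a rat gene table by Entrez identifier. A dose rank from 0 to 5 was also fitted. Correlations used values minus the group mean, with permutation within groups (numpy 2.4.6, 36 pairs). Arrays have no read depth, and precision rests on the number of animals. The members and lists were chosen with earlier results of these data known. Genes named are the 9 enzymes, the 10 most and 5 least alike genes, and up to 4 genes per list by smallest p at 943 mg/kg or highest r, with extremes of a list named after their values were seen. Alternatives were the upper 50% of probe sets, a variance trend, array weights, a replicate block, renormalization, an unmoderated model, 1 probe set per gene, other dose scores and leaving out each animal.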

Additional observations from a re-analysis of the deposited data

Results flagged for a closer look

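Each of the 9 enzymes was examined in each of the 6 groups for an animal far from the other 5. In 54 such groups 1 was found, where chance gives about 1 in 20, or 2.7. Nsdhl in replicate 1 at 94.3 mg/kg was 10.54 on the log2 scale, 0.443 below the nearest animal of its group, which is a share of 0.7004 of the group's whole range. The same animal was the lowest of its group for all 9 enzymes.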

How the results depend on the processing

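In every alternative run, 0 of the 9 enzymes passed at any dose, in the F test or in the trend. The median difference stayed above 0 when each animal was left out in turn, from 0.18 to 0.33 at 94.3 mg/kg and from 0.13 to 0.29 at 943 mg/kg. Over all probe sets, 0 to 11 were called at 94.3 mg/kg (11 without replicate 1 at that dose, none of them one of the enzymes), 0 to 1 at 9.4 mg/kg and 0 to 1 in the trend, and quantile normalization again gave 1 in the trend. The replicate numbers are shared by the groups, and the sample titles do not say that they pair animals. Same-numbered animals of different groups had a median r of 0.0026 over 90 pairs, against -0.0094 over 450 pairs with different numbers. An r over 0.1 was seen in 18 of the 90 and 62 of the 450. Whether the numbers mark a block was not tested, and a fit with a replicate block gave 0 calls. Differences that turned sign were small. The Nsdhl difference at 9.4 mg/kg against vehicle was 0.0052 with array weights, and the Fdft1 difference at 9.4 mg/kg against vehicle was -0.0015 with quantile normalization again. When single animals were left out, the ranges at 0.1 mg/kg were -0.0126 to 0.15 (Fdft1), -0.0020 to 0.0847 (Cyp51) and -0.23 to 0.0116 (Dhcr7). At 0.94 mg/kg they were -0.26 to 0.0194 (Sqle) and -0.14 to 0.0374 (Cyp51). At 9.4 mg/kg they were -0.0356 to 0.0772 (Fdft1), -0.0470 to 0.0952 (Lss), -0.12 to 0.0377 (Cyp51), -0.0378 to 0.15 (Msmo1), -0.0637 to 0.0217 (Nsdhl), -0.0854 to 0.0976 (Hsd17b7) and -0.21 to 0.0232 (Dhcr7), and at 94.3 mg/kg -0.0039 to 0.23 (Dhcr7). The median difference at 0.1 mg/kg ranged from 0.0074 (without vehicle replicate 5) to 0.12. At 0.94 mg/kg it ranged from -0.23 to -0.0167 (without replicate 2 at that dose), and at 9.4 mg/kg from -0.05 to 0.08. At the 2 highest doses, single animals also moved differences by over 1.5 times without turning them. At 943 mg/kg without replicate 1 the median was 0.13, and Sqle was 0.30, Fdft1 0.13, Cyp51 0.11, Sc5d 0.0423 and Dhcr7 0.0633. Without replicate 6 Sc5d was 0.19 and Dhcr7 0.28. Dhcr7 was 0.0452 without vehicle replicate 5, 0.28 without vehicle replicate 1 and 0.11 without replicate 2. In the 94.3 mg/kg comparison Cyp51 was 0.0882 and Dhcr7 0.0653 without replicate 3. Nsdhl was 0.24 and Dhcr7 0.23 without replicate 1. Sc5d ranged from 0.0170 (without replicate 3) to 0.12 (without replicate 1), and also moved without replicates 2 or 5 or vehicle replicates 1 or 5. Dhcr7 was 0.23 without vehicle replicate 1. The median pairwise r was 0.910, 0.952 and 0.925 in the 0.94, 94.3 and 943 mg/kg groups alone and 0.715 without the 4 animals that deviated most, an alternative added after seeing the data. The cause was not tested.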
